A study of Mus musculus with 8 samples.

Results

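The genes described here are type I interferon-stimulated genes, a list of 31 mouse genes that cells switch on when interferon binds its receptor. Members were the rows of the deposited gene table whose symbol is on the list, and 29 of the 31 had a row among 18901 genes. Mx1 and Mx2, which encode antiviral dynamin-like GTPases, were not analysed here. The measurements come from RNA sequencing of the injected cheek in 2 groups, 4 TBX20fl/fl;K14-Cre mice (knockout) and 4 TBX20fl/fl littermates (control), with 1 library for each mouse. All 8 were female, 7 weeks old and homozygous for the floxed Tbx20 allele, from a cross of floxed mice on a C57BL/6J background with K14-Cre mice on a C57BL/6N background. Each received 10 µg of BNP, the natriuretic peptide that provokes scratching, by intradermal injection into the left cheek, and was euthanised 5 h after a 30 min recording. In the knockout, Cre driven by the keratin 14 promoter removes exons 2 and 3 of Tbx20 in keratinocytes, so other cells of the skin keep the gene. The comparison asks how skin treated in this way differs when keratinocytes lack TBX20. No uninjected skin was compared here, so the levels are those of injected skin in both genotypes.

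Type I interferons (interferon-α, interferon-β and, in keratinocytes, interferon-κ) bind a receptor made of IFNAR1 and IFNAR2, whose kinases JAK1 and TYK2 act on STAT proteins, STAT2 among them. The complex ISGF3, which contains STAT2 and IRF9, binds the interferon-stimulated response element, a DNA sequence built from repeats of GAAA, in the promoters of many genes. Their products sense viral nucleic acid, block viral entry, replication and translation, and feed back on the pathway. In skin, keratinocytes, fibroblasts, endothelial cells and leukocytes all carry the receptor, so RNA from whole skin sums over them.

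The response element is shown here because it is a feature that the list did not use. RefSeq start sites on GRCm38.p6 gave a promoter window, from 250 bases before to 50 bases after the start, for 22 of the 29 members. The motif GAAANNGAAA, searched on both strands with overlapping matches allowed, was in the window of 12 of these 22 members (54.5%), and in 3.99% of 27025 genes with a window. Of the 12, 9 had a match before the start and 6 had at least 2 matches in a window. The match in Ifih1, Ddx58 and Ifitm3 lay after the start. The following stretches hold every match before the start in 8 of the 9 genes and 20 bases on either side, on the strand of the gene and 5′ to 3′, with the motif in capitals. In 5 of these genes (Stat2, Rsad2, Ifit3, Ifit3b and Ifit1) it is the reverse complement, TTTCNNTTTC, that reads along the strand of the gene.
Isg15, chr4:156200855-156200916, minus strand: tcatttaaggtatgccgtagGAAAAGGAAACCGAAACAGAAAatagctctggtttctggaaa
Bst2, chr8:71537567-71537622, minus strand: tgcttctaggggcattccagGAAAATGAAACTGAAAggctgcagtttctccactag
Cxcl10, chr5:92349073-92349122, minus strand: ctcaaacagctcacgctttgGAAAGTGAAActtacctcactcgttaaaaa
Ifit1, chr19:34640765-34640833, plus strand: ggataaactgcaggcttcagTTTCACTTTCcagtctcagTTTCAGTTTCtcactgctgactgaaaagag
Ifit3, chr19:34583353-34583436, plus strand: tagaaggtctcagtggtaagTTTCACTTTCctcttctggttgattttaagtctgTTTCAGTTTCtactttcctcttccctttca
Ifit3b, chr19:34607749-34607832, plus strand: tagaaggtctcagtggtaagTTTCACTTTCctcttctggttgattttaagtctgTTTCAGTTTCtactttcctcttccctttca
Rsad2, chr12:26456543-26456592, minus strand: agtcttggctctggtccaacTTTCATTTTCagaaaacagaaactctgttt
Stat2, chr10:128270256-128270305, plus strand: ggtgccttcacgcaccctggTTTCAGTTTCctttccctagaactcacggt
Isg15 carried 3 overlapping matches and Bst2 a pair of them, whereas Ifit1, Ifit3 and Ifit3b had 2 separate ones. The stretches of Ifit3 and Ifit3b were identical at 84 of 84 positions. A match describes the sequence and was not tested for binding.

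Total counts ran from 16056282 to 19880654 per mouse, so that 3 counts, taken as the detection floor, correspond to 0.151 to 0.187 CPM (counting error only). All 29 members passed the count filter, and their lowest count in any mouse was 249. Tbx20 itself had 0 to 2 counts in knockout and 0 to 3 counts in control skin, too few at this depth to show the deletion. The control library with replicate number 2 stood apart. Its median Spearman correlation with the other libraries across genes was 0.919 (0.974 to 0.990 for the remaining 7), and its short transcripts read high and its long ones low (Spearman correlation of its deviation with transcript length, -0.781). The other libraries had such correlations of -0.549 (control replicate 3) to 0.465 (knockout replicate 3). Control replicate 2 also had a TMM scaling factor of 0.735 (1.01 to 1.07 in the others) and a total FPKM of 772536 (521852 to 605508). Its median FPKM rank among the 8 mice was 1, the lowest, over genes whose mean FPKM reached 0.1 (4 to 5 in the others). The FPKM values were not rescaled for this. Where a member's value moved by more than 1.5 times without this library or with the trend on transcript length removed from every mouse, at least 1 such value is also given. Keratinocyte markers were abundant in every mouse (Krt14, a keratin of the basal epidermis, 1075 to 1305 FPKM in knockout and 1084 to 1572 FPKM in control skin) from tissue labelled skin, and so were skeletal muscle markers (summed FPKM of 6 genes, 7769 to 13158 and 10198 to 13703), so the samples held muscle as well as skin.

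Interferon-stimulated genes were lower in knockout than in control skin in 28 of 29 cases by their log2 fold change from counts. The median was -0.79 over the members and 0.03 over all 17124 genes tested, of which 47.5% were lower. The lowest values were those of Isg15 and Ifi27l2a, both at -1.27, and only Dtx3l was above 0, at 0.03. No member passed an adjusted p of 0.05 by edgeR's quasi-likelihood test, adjusted over all genes after Benjamini and Hochberg (smallest adjusted p = 0.498). Neither did any other gene, so the background is 0%. At an unadjusted p under 0.05, 21 of the 29 members were lower in knockout skin, beside 5.91% of all genes tested, and none was higher. With the replicate number as a block 16 were, beside 6.54%, and Ifit2, Irf9, Usp18, Parp9 and Cxcl10 no longer reached it (unadjusted p = 0.0814, 0.0575, 0.0587, 0.0535 and 0.0516). DESeq2 gave 10 genes past an adjusted p of 0.05, none of them a member (smallest adjusted p of a member, 0.0687), and limma on FPKM gave 0. In bulk skin, fewer cells that express these genes and less RNA per cell cannot be told apart.

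**Figure D1:**
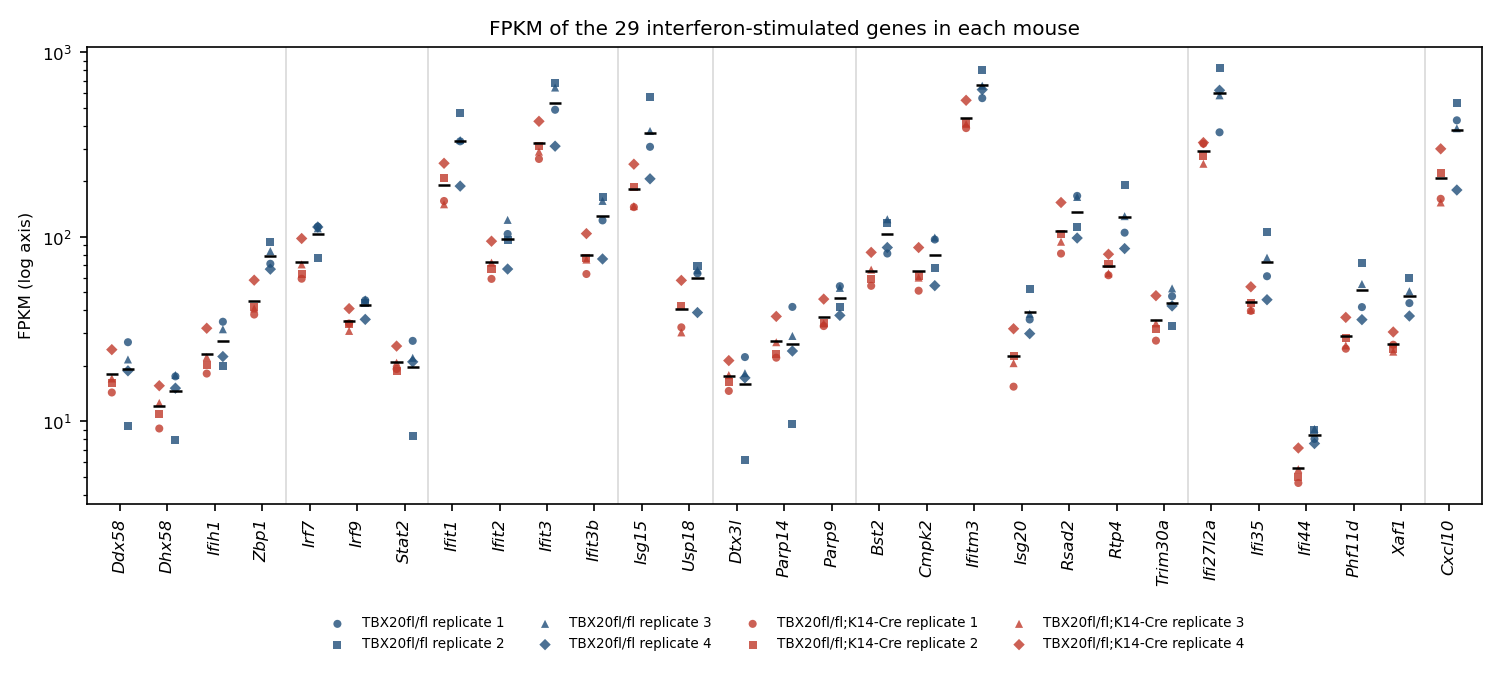
FPKM (vertical log axis) of each of the 29 interferon-stimulated genes in each mouse, grouped by role, with knockout mice in red and control mice in blue, symbols giving the replicate number and black bars the group means. The red diamond (knockout replicate 4) is the highest red point for all 29 genes, and the groups are separate for Zbp1, Ifitm3, Rtp4, Ifi27l2a, Ifi44 and Xaf1.

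In FPKM, which divides by transcript length, the groups did not overlap for 6 members (Zbp1, Ifitm3, Rtp4, Ifi27l2a, Ifi44 and Xaf1), each lower in knockout skin, beside 1.92% of 15970 genes whose mean FPKM reached 0.1. For each of the 6, the two-sided exact permutation test over the 70 assignments of the mice gave p = 0.0286, the smallest that 4 mice against 4 allow, and an adjusted p of 0.388 over all those genes. In the plot of FPKM by mouse, the control mouse that comes nearest to the knockout group differs between members. Knockout replicate 4 was the highest knockout mouse for 29 of 29 members. The lowest control mouse was replicate 4 for 18 members, replicate 2 for 8 and replicate 1 for 3. Without control replicate 4 the count of members without overlap was 17, beside 4.23% of all those genes, and without knockout replicate 4 it was 15, beside 3.49%. These 2 mice were singled out by the members' own values, so a rise in the count was built in. Without control replicate 2 the count was 7, beside 2.57%.

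The sensors detect nucleic acid in the cytosol. Zbp1, which binds left-handed nucleic acid and can start necroptosis (chr2:173206612-173218959), had an FPKM of 37.8, 41.7, 40.8 and 58.1 in knockout replicates 1 to 4 and 71.3, 93.2, 83.6 and 66.7 in control replicates 1 to 4. All control mice lay above all knockout mice. The means were 44.6 ± 9.15 (SD, n = 4) and 78.7 ± 12.0 (SD, n = 4), giving a log2 fold change of -0.86 from counts (standard error 0.203, edgeR unadjusted p = 0.00194, adjusted p = 0.498), the smallest unadjusted p of any member, and of -0.52 with the length trend removed. Ifih1 encodes MDA5, the sensor of long double-stranded RNA (chr2:62593289-62646255). Its FPKM was 18.1, 20.3, 22.3 and 31.9 in knockout mice and 34.6, 19.8, 31.5 and 22.4 in control mice, in replicate order. Only control replicate 1 lay above all knockout mice (log2 fold change -0.35, standard error 0.215, edgeR adjusted p = 0.501). With the length trend removed the log2 fold change of Ifih1 was -0.74 (standard error 0.256, edgeR unadjusted p = 0.0168). Ddx58 (RIG-I, the sensor of RNA with a 5′ triphosphate) ranged from 14.3 to 24.4 FPKM in knockout and from 9.44 to 26.8 FPKM in control mice. Dhx58 (LGP2, the relative of RIG-I without a signalling domain) ranged from 9.12 to 15.6 and from 7.88 to 17.8 FPKM. In both genes control replicate 2 had the lowest value of all 8 mice, as was common in that library (median FPKM rank over genes, 1 of 8). Their log2 fold changes were -0.21 and -0.40, and -0.47 and -0.36 with the length trend removed (edgeR unadjusted p = 0.0198 and 0.111).

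Of the factors that carry the signal, Irf7 and Irf9 were lower at an unadjusted p under 0.05, and Stat2 had a log2 fold change of -0.01. Irf7 amplifies interferon production and is itself interferon-induced (chr7:141263183-141266499). It had an FPKM of 59.2, 62.9, 70.8 and 97.8 in knockout mice against 113, 76.8, 111 and 113 in control mice. Control replicate 2 was below knockout replicate 4, and the other 3 control mice were above every knockout mouse. The log2 fold change of Irf7 was -0.66 (standard error 0.173, edgeR unadjusted p = 0.00383, adjusted p = 0.498). Irf9, the DNA-binding part of ISGF3 (chr14:55603985-55610030), read 33.9, 33.5, 30.9 and 40.8 FPKM in knockout skin. Its control values were 45.2, 43.8, 45.8 and 35.6 FPKM, so that control replicate 4 lay within the knockout range (log2 fold change -0.48, standard error 0.185, edgeR unadjusted p = 0.0292). Stat2, a subunit of ISGF3 (chr10:128270498-128292853), was at 19.2, 18.8, 20.7 and 25.5 FPKM in knockout mice and at 27.2, 8.30, 22.1 and 21.0 FPKM in control mice. Its lowest value by far was that of control replicate 2. The log2 fold change of Stat2 was -0.01 with all mice (standard error 0.244, edgeR adjusted p = 0.990), -0.20 without control replicate 2 and -0.20 with the length trend removed.

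The IFIT proteins bind foreign RNA at its 5′ end and hold back its translation. Their genes lie side by side on chromosome 19, and all 4 on the list were lower at an unadjusted p under 0.05, with a median log2 fold change of -0.94. Ifit1, which recognises RNA whose cap lacks methylation (chr19:34640889-34650009), had an FPKM of 156, 208, 149.9 and 250.1 in knockout mice. In control mice it had 329, 471, 334 and 188 FPKM. Replicates 1 to 3 were apart and replicate 4 crossed over, with the control mouse below the knockout mouse of that number. The means were 191 ± 47.2 and 331 ± 116 (SD, n = 4 each), with a log2 fold change of -1.03 (standard error 0.361, edgeR unadjusted p = 0.0181), and -0.62 without control replicate 2. Ifit2, which binds AU-rich RNA (chr19:34550550-34576534), read 59.1, 67.1, 72.4 and 94.5 FPKM in knockout and 103, 96.5, 123 and 66.8 FPKM in control mice. Ifit3, the partner that stabilises IFIT1 (chr19:34583119-34588982), read 264, 309, 289 and 422 FPKM in knockout and 488, 681, 644 and 309.7 FPKM in control mice. In both, control replicate 4 lay within the knockout range and the other control mice lay above it. Their log2 fold changes were -0.59 (standard error 0.245) and -0.95 (standard error 0.330). Ifit3b (chr19:34607530-34613403) had 62.8, 76.3, 75.2 and 104 FPKM in knockout and 123, 164, 156 and 75.8 FPKM in control mice, the same order of mice as Ifit3 in the controls. Ifit3 and Ifit3b share sequence. Of the 50-base stretches of their GENCODE transcripts, 51.2% of those of Ifit3 and 45.0% of those of Ifit3b occur in the transcripts of another gene, so their separate values are uncertain.

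Isg15 encodes a ubiquitin-like protein that is joined to other proteins, and Usp18 the protease that removes it and also blocks the interferon receptor. Isg15 (chr4:156199424-156200818) had an FPKM of 145, 186, 147 and 247 in knockout mice and 307, 573, 374 and 206 in control mice. Control replicate 2 was the highest of all mice, and control replicate 4 was below knockout replicate 4. The mean in knockout skin was 49.6% of that in control skin, and the log2 fold change was -1.27 (standard error 0.395, edgeR unadjusted p = 0.0101, adjusted p = 0.498). It was -0.76 without control replicate 2 and -0.60 with the length trend removed. Usp18 (chr6:121245906-121270917) read 32.3, 42.1, 30.3 and 58.0 FPKM in knockout and 63.3, 69.5, 65.8 and 38.8 FPKM in control mice. Again the first 3 control mice were above every knockout mouse and the last was not (log2 fold change -0.75, standard error 0.299, edgeR unadjusted p = 0.0317), or -0.52 with the length trend removed (edgeR unadjusted p = 0.0522).

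Parp9 and Dtx3l encode an ADP-ribosylation complex that enhances interferon signalling, and Parp14 a large relative of PARP9. Parp9 (chr16:35938470-35972621) had an FPKM of 32.8, 33.9, 33.8 and 45.9 in knockout and 53.9, 41.4, 52.8 and 37.5 in control mice. Knockout replicate 4 exceeded control replicates 2 and 4 (log2 fold change -0.51, standard error 0.184, edgeR unadjusted p = 0.0211). Dtx3l ranged from 14.6 to 21.3 FPKM in knockout and from 6.19 to 22.2 FPKM in control mice. Parp14 ranged from 22.1 to 37.0 FPKM in knockout and from 9.67 to 41.6 FPKM in control mice. The lowest value of each was that of control replicate 2, and the highest that of control replicate 1. Their log2 fold changes were 0.03 and -0.04, and became -0.22 and -0.41 with the length trend removed and -0.19 and -0.26 without control replicate 2. The rows of Parp9 and Dtx3l overlap at their starts on opposite strands, and the strand used in counting is not given in the sources used here, so reads there cannot be assigned to either gene.

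Of the 9 listed effectors, which act on viruses directly, 7 had a row. Ifitm3, which stops viruses from leaving endosomes (chr7:141009590-141010744), was the most abundant member in knockout skin, at 388, 416, 408 and 549 FPKM, and its control values were 564, 802, 659 and 628 FPKM. Rtp4, a receptor chaperone with antiviral activity (chr16:23520210-23614222), read 61.8, 71.3, 63.3 and 80.3 FPKM in knockout and 105, 191, 129 and 86.2 FPKM in control mice. Both genes separated the groups, with log2 fold changes of -0.80 (standard error 0.242, edgeR unadjusted p = 0.00863) and -1.11 (standard error 0.330, edgeR unadjusted p = 0.00778), or -0.20 and -0.61 with the length trend removed (edgeR unadjusted p = 0.274 and 0.00269). Isg20, an RNA exonuclease (chr7:78913396-78920396), had 15.4, 22.6, 20.6 and 31.7 FPKM in knockout and 35.6, 51.9, 38.2 and 29.8 FPKM in control mice. Bst2 encodes tetherin, which holds budding virions on the cell (chr8:71534255-71537472), and had 54.1, 59.1, 66.3 and 82.2 FPKM in knockout and 81.1, 119, 124 and 87.4 FPKM in control mice. In each of these genes a single control mouse, replicate 4 for Isg20 and replicate 1 for Bst2, lay below knockout replicate 4. The knockout mean was 58.1% of the control mean for Isg20 and 63.6% for Bst2 (edgeR unadjusted p = 0.0101 and 0.00702), and the log2 fold changes were -0.51 and -0.31 with the length trend removed (edgeR unadjusted p = 0.0306 and 0.121).

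Trim30a, a ubiquitin ligase of the tripartite motif family (chr7:104409025-104465193), read 27.3, 31.6, 33.9 and 47.9 FPKM in knockout and 47.5, 33.0, 52.5 and 42.1 FPKM in control mice, and the groups overlapped (log2 fold change -0.47, standard error 0.188, edgeR unadjusted p = 0.0325). Rsad2 (viperin, which makes a chain-terminating nucleotide) ranged from 81.0 to 153 FPKM in knockout and from 98.4 to 166 FPKM in control mice. Its neighbour on chromosome 12, the nucleotide kinase gene Cmpk2, ranged from 51.0 to 87.4 and from 54.3 to 99.0 FPKM. In both neighbours control replicates 1 and 3 lay above every knockout mouse and control replicates 2 and 4 did not. Their log2 fold changes of -0.49 and -0.46 did not reach an unadjusted p of 0.05 (edgeR, 0.0782 and 0.0881). They were -0.69 and -0.55 with the length trend removed (edgeR unadjusted p = 0.0268 and 0.0449), and -0.68 and -0.53 with the replicate block as well (edgeR unadjusted p = 0.0605 and 0.101).

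The members of less settled function included 3 of the 6 that separated the groups. Ifi27l2a, of the Ifi27 family (chr12:103433873-103443680), had an FPKM of 319.5, 274, 249 and 324 in knockout and 368, 824, 584 and 622 in control mice. Its knockout values were close together and the control values spread widely, with a log2 fold change of -1.27 (standard error 0.314, edgeR unadjusted p = 0.00271), -0.89 without control replicate 2 and -0.53 with the length trend removed. Its transcript, at 416 bases, is the shortest of the list. Xaf1, which opposes the apoptosis inhibitor XIAP (chr11:72301461-72313733), read 26.0, 24.7, 23.8 and 30.4 FPKM in knockout and 43.6, 59.6, 50.6 and 37.1 FPKM in control mice. Ifi44 (chr3:151730922-151749910) read 4.62, 4.97, 5.49 and 7.15 FPKM in knockout and 8.01, 8.97, 9.07 and 7.56 FPKM in control mice, the lowest level of the list. The groups of both genes were separate, with log2 fold changes of -0.97 (standard error 0.248, edgeR unadjusted p = 0.00329) and -0.79 (standard error 0.209, edgeR unadjusted p = 0.00414), or -0.61 and -0.82 with the length trend removed. Phf11d, a PHD finger gene (chr14:59345939-59370675), had 24.7, 28.3, 25.7 and 36.5 FPKM in knockout and 41.5, 72.1, 55.4 and 35.5 FPKM in control mice. Ifi35, whose product binds NMI (chr11:101448412-101458701), had 39.6, 43.6, 40.2 and 53.5 FPKM in knockout and 61.1, 107, 77.0 and 45.5 FPKM in control mice. Control replicate 4 alone lay within the knockout range in both. The log2 fold change of Ifi35 was -0.96 (standard error 0.335, edgeR unadjusted p = 0.0181), and -0.52 without control replicate 2 and -0.53 with the length trend removed. The log2 fold change of Phf11d was -1.07 (standard error 0.319, edgeR unadjusted p = 0.00825). It was -0.67 without control replicate 2 and -1.06 with the length trend removed, the lowest of all members on that scale.

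Cxcl10, the chemokine that draws CXCR3-bearing T cells and NK cells (chr5:92346638-92348889), had an FPKM of 161, 221, 153 and 299.7 in knockout and 428, 528, 387 and 179 in control mice. The first 3 control mice lay above every knockout mouse, and control replicate 4 lay below knockout replicates 2 and 4. The means were 209 ± 67.8 and 381 ± 147 (SD, n = 4 each), and the log2 fold change was -1.11 (standard error 0.398, edgeR unadjusted p = 0.0208, adjusted p = 0.498). It was -0.61 (standard error 0.293, edgeR unadjusted p = 0.0663) with the length trend removed.

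**Figure D2:**
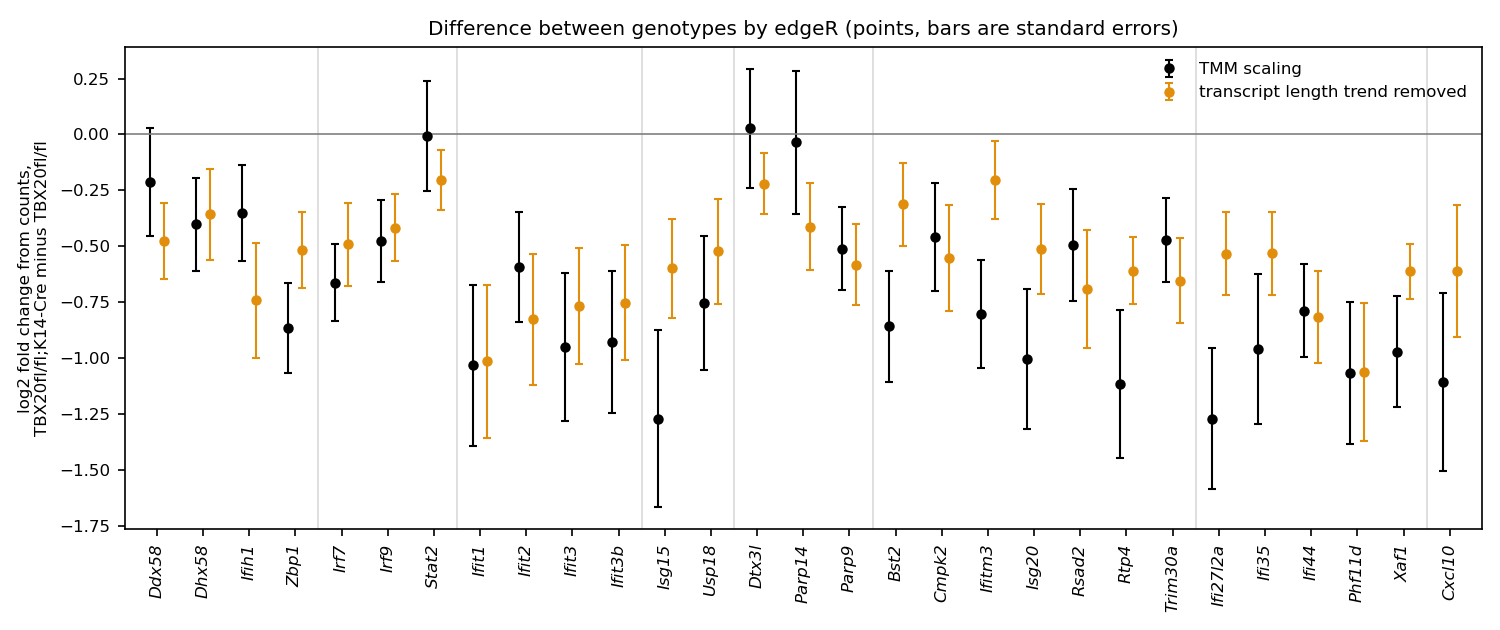
Log2 fold change from counts (vertical axis, knockout minus control) of each member by edgeR, with TMM scaling in black and with the transcript length trend removed in orange, bars being standard errors. The black points run from -1.27 to 0.03 and the orange points from -1.06 to -0.20, all 29 of the latter below 0.

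How far each member lay below 0 followed the length of its transcript. The 10 members with the shortest transcripts (416 to 1377 bases) had a median log2 fold change of -0.99, the 9 of middle length -0.79 and the 10 longest (3033 to 7229 bases) -0.41. All genes tested also had higher values at greater length, with medians of -0.49, -0.06 and 0.22 in those ranges of length. The Spearman correlation of log2 fold change with transcript length was 0.80 over the 29 members, a description only, since they share the same 8 libraries, and 0.59 over all genes. Over the members it was 0.81 without control replicate 2 and -0.11 with the length trend removed from each mouse. On that scale the members lay closer together (interquartile range 0.22, against 0.50), all 29 were lower in knockout skin, and the median was -0.55 beside 0.02 over all genes. At an unadjusted p under 0.05, 21 were lower there, beside 5.19% of all genes, and 0 passed the adjusted threshold (smallest adjusted p of a member, 0.536). Groups of length-corrected log2 CPM did not overlap for 4 members, beside 2.51% of all genes. Without control replicate 2, 29 of 29 members were lower, with a median of -0.53, and 19 had an unadjusted p under 0.05 in edgeR's test, beside 4.5% of 17058 genes that were lower at that p.

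**Figure D3:**
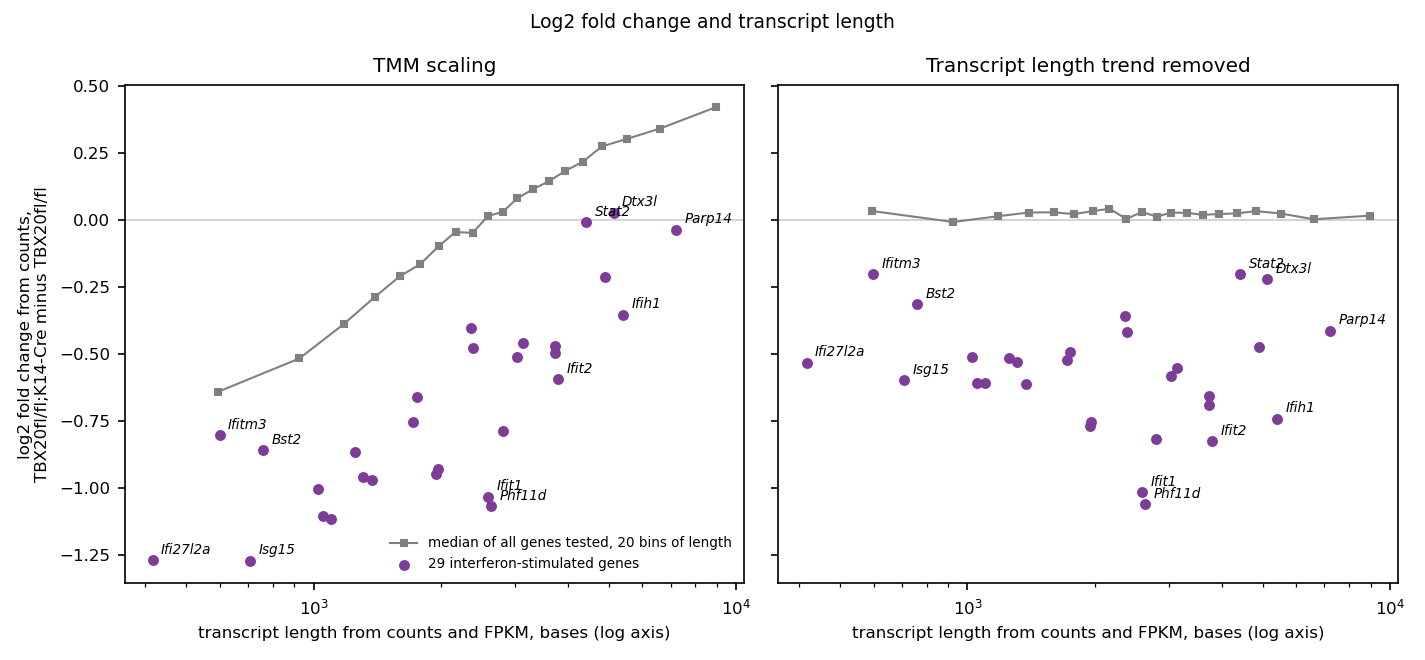
Log2 fold change from counts (vertical axis, knockout minus control) against transcript length in bases (log axis), for the 29 members (purple) and as the median of all tested genes in 20 bins of length (grey), with TMM scaling on the left and the length trend removed on the right. On the left the members lie below the grey line, and on the right they lie between -1.06 and -0.20 with the grey line near 0.

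The mice themselves differed across much of the list, though not in the same order for every member. Summed over the 29 members, FPKM was 2234, 2527, 2300 and 3358 in knockout replicates 1 to 4 and 3914, 5349, 4562 and 3209 in control replicates 1 to 4. Control replicate 4 was thus below knockout replicate 4, and the other 3 control mice were above all knockout mice. Control replicate 2, with the highest sum, was the highest of the 8 mice for 14 members and the lowest for 5. Over all genes too its FPKM summed to more, 772536 against 521852 to 605508 in the other mice. Same-numbered mice, which are different animals, were also compared by number, since their deviations from the group means correlated across genes (0.160 to 0.405). Knockout replicate 4, however, correlated more with control replicate 1 (0.426) than with control replicate 4 (0.160). The main fit did not use the numbers. By number, 29 of 29 members were lower in the knockout mouse in pair 1, 23 in pair 2, 29 in pair 3 and 8 in pair 4. The median difference in log2(FPKM + 1) was -0.86, -0.74 and -0.80 in the first 3 pairs and 0.26 in the fourth. Of all genes, 46.4%, 30.8%, 42.7% and 42.8% were lower in those pairs. The 6 exceptions in pair 2 were Stat2, Ddx58, Ifih1, Dhx58, Parp14 and Dtx3l. The 8 that were lower in pair 4 were the 6 whose groups did not overlap, Irf7 and Bst2. With the length trend removed 28 of 29 members were lower in pair 2 and 6 in pair 4.

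**Figure D4:**
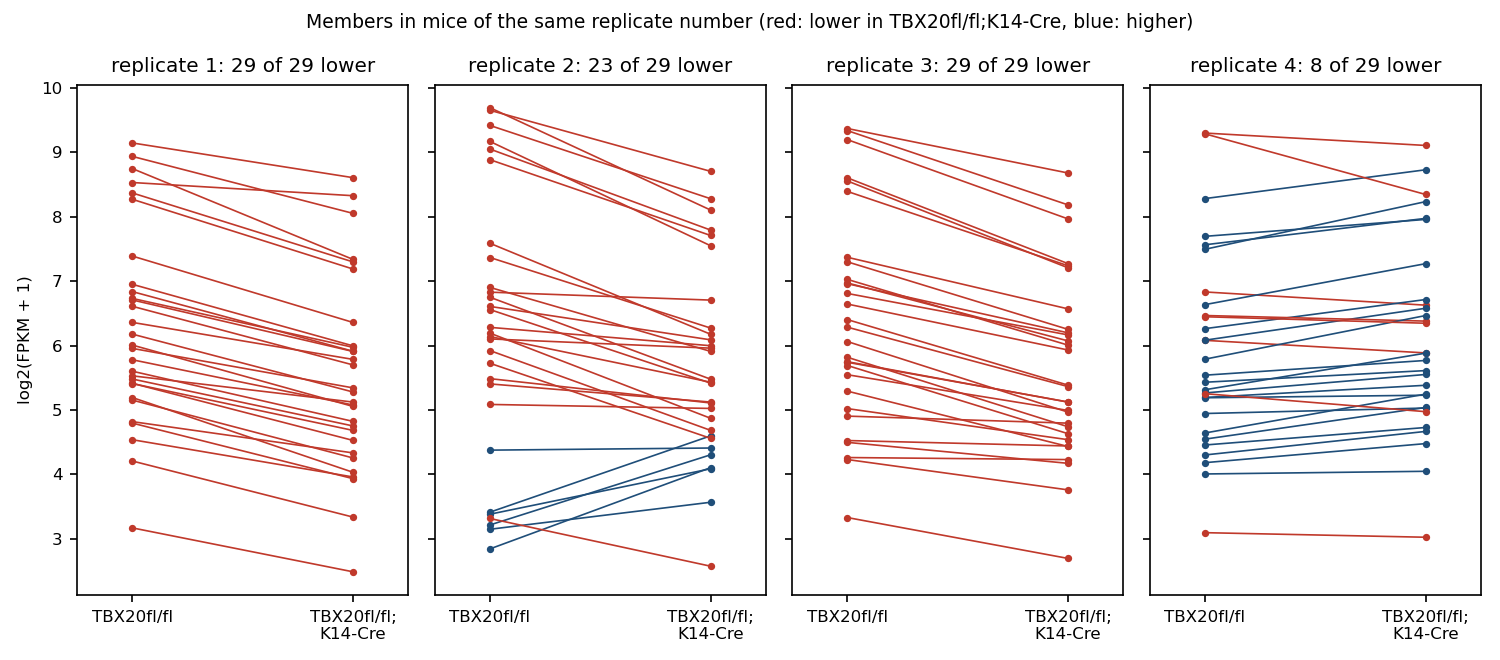
Log2(FPKM + 1) of the 29 members (vertical axis, 1 line a gene) in the control mouse and the knockout mouse of each replicate number, in red where the knockout mouse was lower and in blue where it was higher. All lines descend in pairs 1 and 3, 23 of 29 in pair 2 and 8 of 29 in pair 4.

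Upstream of these genes, interferon transcripts were near the floor. Of 21 ligand genes listed, 5 had a row. Ifnk, the interferon of keratinocytes, had 0, 1, 0 and 3 counts in knockout and 7, 1, 4 and 16 counts in control mice, and Ifnb1 had 0, 2, 2 and 6 against 3, 14, 4 and 2 counts. Ifng, the type II interferon of T and NK cells, had 1, 3, 6 and 3 against 9, 11, 10 and 2 counts, and Ifnz had 0, 0, 6 and 0 against 0, 0, 6 and 8. Ifnl2 had at most 1 count. The log2 fold changes were -2.82 for Ifnk (standard error 0.928, edgeR unadjusted p = 0.0136, adjusted p = 0.498), -1.57 for Ifnb1 (unadjusted p = 0.143), -1.58 for Ifng (unadjusted p = 0.0426) and -1.33 for Ifnz (unadjusted p = 0.344). Removing the length trend gave -2.53, -0.84, -1.16 and -1.13 (edgeR unadjusted p = 0.0430, 0.318, 0.0816 and 0.434), so that Ifng no longer reached 0.05. At such counts they rest on a handful of reads, and the most abundant Ifnk library, control replicate 4, was the control library lowest for 18 members.

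Receptors and kinases lay nearer to 0 than the members. Of 9 genes, 5 were lower, with a median log2 fold change of -0.18, and 1 had an unadjusted p under 0.05, beside 47.5% of all genes lower and 5.91% lower at that p. That was Ifngr2, a chain of the interferon-γ receptor, at 36.0 to 38.1 FPKM in knockout and 39.7 to 43.6 FPKM in control mice (log2 fold change -0.33, edgeR unadjusted p = 0.0457). The type I receptor chains had mean FPKM values of 9.77 ± 0.528 and 8.48 ± 2.78 (SD, n = 4 each) for Ifnar1, and 27.4 ± 3.06 and 32.0 ± 3.34 for Ifnar2, in knockout and control skin. Their log2 fold changes were 0.08 and -0.35 (edgeR unadjusted p = 0.643 and 0.0591), or -0.34 and -0.07 with the length trend removed (edgeR unadjusted p = 0.0357 and 0.567). Those of the type III receptor genes Ifnlr1 and Il10rb were 0.37 and -0.41, and that of Ifngr1 was -0.21, or 0.22, -0.21 and -0.10 with the length trend removed. None had an adjusted p under 0.05. With the length trend removed 7 of the 9 were lower, with a median of -0.12 and 3 at an unadjusted p under 0.05 (5.19% of all genes), namely Ifnar1, Ifngr2 (-0.21) and the kinase gene Jak2 (-0.44). With the replicate block 0 of the 9 reached that p.

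Of 16 further transcription factors and sensors, 12 were lower (47.5% of all genes), with a median of -0.18. At an unadjusted p under 0.05 in edgeR's test, beside 5.91% of all genes, 1 of the 16 was lower. This was Myd88, the adaptor of Toll-like and IL-1 receptors (31.2 to 46.7 FPKM in knockout and 47.7 to 54.5 FPKM in control mice, log2 fold change -0.65, edgeR unadjusted p = 0.00936). Tbk1 and Tmem173 (STING), which activate IRF3, followed at -0.24 and -0.34, or -0.30 and -0.20 with the length trend removed (edgeR unadjusted p = 0.00786 and 0.136). Of 9 feedback inhibitors 7 were lower, with a median of -0.22, and Trex1 (-0.50), Socs3 (-0.67) and Socs1 (-0.60) had the smallest p-values, 2 of the 9 being under 0.05, and 1 with the replicate block (6.54% of all genes), where Trex1 was at an unadjusted p of 0.0571. The 3 values were -0.10, -0.68 and -0.21 with the length trend removed (edgeR unadjusted p = 0.637, 0.0367 and 0.347). The same step left the further factors and sensors at 11 of 16 lower and 5 under 0.05, beside 47.0% of all genes lower and 5.19% lower at that p. A further 63 interferon-stimulated genes were listed besides the 31, of which 62 had a row and 61 were tested. Of these, 55 were lower, with a median of -0.46, and 30 were lower at an unadjusted p under 0.05 while 0 were higher, beside 47.5% of all genes that were lower and 5.91% that were lower at that p. The smallest p-values belonged to Ifi213 (a PYHIN family gene, -0.74), Ube2l6 (the conjugating enzyme for ISG15, -0.68) and Nmi (-1.14). With the length trend removed, 56 of the 61 were lower and the median was -0.42, and Ifi213, Ube2l6 and Nmi were at -0.84, -0.37 and -0.73. This list was chosen with earlier results of these data known, so its counts are not independent of them. It also holds genes that share sequence with members, such as Ifit1bl1, Ifit1bl2, Phf11a, Phf11b and Trim30d.

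Among leukocyte markers, those of neutrophils, monocytes, and T and NK cells were mostly lower in knockout skin. Of 11 neutrophil markers 10 were lower, 6 of them at an unadjusted p under 0.05 in edgeR's test, beside 5.91% of all genes (median log2 fold change -0.96), and their summed FPKM was 111 to 301 in knockout and 294 to 979 in control mice. Most of that sum was S100a8 and S100a9, at 110 and 131 FPKM in knockout replicate 4 and 448 and 457 FPKM in control replicate 4. Ly6g and Ngp, both among the 6, had only 2 to 9 and 0 to 8 counts. Of 6 monocyte markers 5 were lower (255 to 383 against 265 to 540 FPKM), of 8 macrophage markers 6 (1246 to 1865 against 1430 to 2709 FPKM) and of 7 T and NK cell markers with a row all 7 (24.5 to 34.6 against 23.4 to 57.6 FPKM). Of all genes tested, 47.5% were lower. In these 3 lists 3, 2 and 3 markers were lower at an unadjusted p under 0.05 in edgeR's test, beside 5.91% of all genes. With the length trend removed 2, 0 and 2 were, beside 5.19%. On the scale with the length trend removed 10 of the 11 neutrophil, 6 of the 6 monocyte, 4 of the 8 macrophage and 6 of the 7 T and NK cell markers were lower, with medians of -1.01, -0.59, -0.03 and -0.33. By mouse the lists differed, since control replicate 4 had the highest neutrophil sum (979 FPKM) and the lowest sum of T and NK cell markers (23.4 FPKM) and of members among controls. Markers of plasmacytoid dendritic cells, the main producers of interferon-α, were lower in 3 of 5 cases (median -0.37, and 0.11 with the length trend removed). Their sum of 137 to 213 FPKM in knockout and 190.2 to 349.8 FPKM in control mice (at most 224.9 FPKM without control replicate 2) was nearly all Cox6a2, which muscle also expresses, and the defining marker Siglech was at 1.56 to 2.83 and 1.68 to 2.39 FPKM. Ccr9, a chemokine receptor gene of that list, had a log2 fold change of -0.52 (edgeR unadjusted p = 0.0376), or -0.77 with the length trend removed (edgeR unadjusted p = 0.0153). With the replicate block it was -0.53 (edgeR unadjusted p = 0.0672). B cell markers were near 0 (summed FPKM at most 0.56), and none of the lists had a marker with 0 counts in all mice. Of 8 keratinocyte markers 2 were lower (median 0.07, 3705 to 4704 against 3474 to 4959 FPKM), of 6 fibroblast markers 2 and of 5 endothelial markers 0. The fibroblast collagen genes Col1a1 and Col1a2 were higher at an unadjusted p under 0.05, beside 2.45% of all genes, with log2 fold changes of 1.10 and 0.75 (edgeR unadjusted p = 0.0198 and 0.0250), or 0.82 and 0.40 with the length trend removed (edgeR unadjusted p = 0.0151 and 0.192). Dcn and Lum, proteoglycan genes of the same list, were at -0.64 and -0.52 (edgeR unadjusted p = 0.0790 and 0.139), and the median of the 6 was 0.40, or 0.02 with the length trend removed, where 3 were lower. The part of these cells in the lower values of the members was not tested.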

How the data were processed

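RNA of cheek skin from 8 mice was read as single ends of 50 bases, and the authors filtered the reads with SOAPnuke (-l of 15, -q of 0.2 and -n of 0.05) and aligned them with HISAT, per the labels and the paper's methods. The versions, the counting program and its strand setting are not given in the sources used here. The values used from the table deposited by the authors are estimated counts (an expected count per gene, on GRCm38), without normalization, of which 69.0% of the nonzero entries had decimals. The deposited FPKM values were made by the authors with the Dr. Tom platform. Columns of TPM, of size-factor-scaled counts, of group means and of the authors' own comparisons (log2 fold changes, p-values and q-values under the name DESeq2) were not used.

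Counts were rounded, the 17124 genes whose counts summed to 10 or more were kept, and genotypes were compared with TMM scaling and edgeR 4.0.16 (quasi-likelihood, R 4.3.3), with Benjamini-Hochberg adjustment over all genes and a threshold of 0.05. Each standard error is the log2 fold change over the root of its F statistic. FPKM values were compared by two-sided exact permutation tests, adjusted over the genes whose mean FPKM reached 0.1. With totals of 16056282 to 19880654, 3 counts correspond to 0.151 to 0.187 CPM. Transcript lengths were derived from counts and FPKM, and a trend of log2 count on length was removed from each mouse as an offset. The fits were also run on simulated counts, which held no length trend and no replicate effect and so could not test how the fits handle either. DESeq2 1.42.0, limma 3.58.1 on log2(FPKM + 1), other filters and size factors, a replicate block and leaving out each mouse served as alternatives. In 13298 genes the deviations of same-numbered mice correlated at 0.405, 0.319, 0.331 and 0.160, and those of other pairs at -0.518 to 0.426. The numbers were taken from the labels, which do not say what they mark. They were used only for the block and for the comparison by number, and the main fit and the exact tests were unpaired. Summaries used Python 3.11.15. Promoters are RefSeq's on GRCm38.p6, and stretches of 50 bases were compared among GENCODE M21 transcripts.

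The members, the gene lists and the markers were chosen with earlier results of these data known. All members are named by role, with values in every mouse for those whose FPKM groups do not overlap or whose unadjusted edgeR p is under 0.05 and for Isg15, Ifit1, Irf7, Stat2, Cxcl10 and Ifih1. Of the pathway lists, ligands, receptors and the 3 genes with the smallest edgeR p in each other list are named.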

Additional observations from a re-analysis of the deposited data

Results flagged for a closer look

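Among 58 groups of 4 mice, the FPKM of each member in each genotype, 3 held a mouse far from the others by Dixon's criterion, where chance alone gives about 1 in 20 groups (2.90). Irf7 was at 76.8 FPKM in control replicate 2, and at 111 to 113 FPKM in the other control mice. In knockout replicate 4, Parp9 was at 45.9 FPKM, against 32.8 to 33.9 FPKM in the other knockout mice, and Ifitm3 was at 549 FPKM, against 388 to 416 FPKM. Knockout replicate 4 was the highest knockout mouse for all 29 members.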

How the results depend on the processing

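No member passed an adjusted p of 0.05 under any alternative run, and the median log2 fold change of the members stayed below 0, at -0.81 to -0.55 over other tests, filters and scalings and at -0.93 to -0.53 when 1 mouse was left out. The number lower at an unadjusted p under 0.05 was 16 to 21 (3.16% to 8.29% of all genes) and 14 to 25 (3.15% to 10.9%), with 14 without knockout replicate 3 (3.22%) and 25 without knockout replicate 4 (4.1%). Over all genes, DESeq2's Wald test gave 10 past the adjusted threshold and every other alternative 0. The number of members whose FPKM groups did not overlap was 9 in TMM-scaled CPM (3.27% of all genes) and 4 with the length trend removed (2.51%, added after seeing the data). It was 6 to 17 when 1 mouse was left out (2.34% to 6.08% of all genes), with 17 without control replicate 4 (4.23%) and 15 without knockout replicate 4 (3.49%). The replicate block gave 16 members under an unadjusted p of 0.05 and a median of -0.76, and with the length trend removed as well 19 (6.41% of all genes) and -0.56. It changed no call at the adjusted threshold.

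The sign of 26 members' log2 fold change held in every alternative. Stat2 (-0.01 with all mice) was at 0.049 with the replicate block, 0.20, 0.21 and 0.20 in limma on FPKM (pseudocounts 1 and 0.1, and no filter) and from -0.20 to 0.16 when a mouse was left out. Parp14 (-0.04) was at 0.053 with the block, 0.20, 0.21 and 0.20 in limma and from -0.26 to 0.25 when a mouse was left out. Dtx3l (0.03) was at -0.22 with the length trend removed, -0.22 with the block as well, -0.19 without control replicate 2 and -0.07 without knockout replicate 4. The differences in mean FPKM of 4 genes also changed sign. When a mouse was left out, those without control replicate 2 and without control replicate 1 were -2.37 and 3.95 for Stat2, -4.26 and 6.39 for Parp14, -1.74 and 3.62 for Dtx3l and -4.43 and 1.35 for Ddx58. In TMM-scaled CPM the differences of Stat2 and Parp14 were -0.37 and -4.62. These 4 genes have long transcripts, on which control replicate 2 read low, and the cause was not tested. Of the 6 exact permutation p-values at 0.0286, 3 against 4 mice gave 0.0286 or 0.0571. The 4 mice in each group, Tbx20 at the detection floor and interferon transcripts near it limit what these libraries can show.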
